A study of Mus musculus with 23 samples.

Results

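The libraries described here are the 6 of 23 that were collected on day 3 of differentiation from C2C12 cells: 3 with the genotype label Runx1KO and 3 control libraries, chosen by the day and genotype in their titles. C2C12 is an established mouse myoblast line that forms myotubes in low serum. The study sequenced polyA-selected RNA of control and Runx1KO cells that were kept in 20% FBS growth medium (day 0) or switched to a 2% horse serum medium to differentiate, and its question at each time was how the genotypes differ. Sample titles name days 0, 1, 3 and 6, while the design text gives the last time as day 5; titles are used here. All 6 day 3 libraries share the line and the low-serum medium and differ in genotype. How Runx1 was disrupted, whether the Runx1KO cells are 1 clone or a pool, and whether replicates are separate cultures is not given in the sources used here, so the p-values measure only the spread between these libraries.

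As background, myoblasts placed in low serum leave the cell cycle, raise Myog under the control of Myod1, fuse through membrane proteins such as Mymk and assemble sarcomeres of thick and thin filaments anchored at Z-discs. Interferons act through surface receptors and Jak kinases on Stat factors and Irf9, which together bind a DNA element called ISRE in the promoters of antiviral genes. Runx1 is a DNA-binding protein of the Runt family that pairs with Cbfb.

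Runx1 mRNA was measured at 249, 199.5 and 203 CPM in the Runx1KO-labelled libraries and 153, 148 and 145 CPM in the controls. It was therefore higher, not lower, in every library labelled Runx1KO, with a log2 fold change of 0.54 ± 0.08 (SE) (adjusted p = 1.09e-05, edgeR quasi-likelihood test with Benjamini-Hochberg adjustment, as for all adjusted p below). CPM are counts scaled to the size of the TMM-adjusted library. Since how Runx1 was disrupted is not given, the mRNA level cannot check the label. It also does not say whether functional protein was made, so directions below are those of the libraries labelled Runx1KO. Of the relatives, Runx2 (0.19) and Cbfb (0.33) were called higher and Runx3 (-0.28, adjusted p = 0.0589) was not called. Runx3 was called lower without Runx1KO-labelled replicate 1 (-0.34), on the TPM scale (-0.33), with DESeq2 (-0.32), with the other scalings and filters and with the day 3 groups fitted alone. The Runx2 call was lost with DESeq2 (0.15), with the other scalings and filters and whenever 1 library other than Runx1KO-labelled replicate 3 was left out, and on the TPM scale Runx2 stood at 0.00. Cbfb was not called on the TPM scale (0.17), while the Runx1 call held.

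Day 3 libraries held 22410191 to 22593877 counts. Of 14187 genes tested, 6127 (43.2%) differed between the labels at an adjusted p under 0.05. Higher in the Runx1KO-labelled libraries were 3403 (24%) and lower were 2724 (19.2%). At an absolute log2 fold change of at least 1 there were 731 higher and 848 lower genes. Of the calls 55.5% were higher on this scale and 34.3% on the authors' TPM scale, where the median gene stood at -0.08 (pseudocount 1) or -0.11 (pseudocount 0.1) against 0.04 here. Myoblast markers summed to 2108 to 2298 TPM in the Runx1KO-labelled libraries and 1714 to 1807 TPM in the controls, with 3 of 6 markers called higher. On the TPM scale 3 were called higher and 2 lower, Myf5 and Pax7. Myod1, Des, Itga7, Myf5 and Pax7 are also in the muscle list described below. Markers of other lineages summed to at most 64.9 TPM in any list. Of these, 13 passed the filter: 8 were called lower (7 without replicate 1) and 1 higher, Lpl of the adipocyte list (1.52). Ptprc and Adgre1 (leukocytes), Kdr and Emcn (endothelium), Adipoq and Plin1 (adipocytes), Ibsp and Alpl (bone) and Thy1 (fibroblasts) were at 0 counts in all 6 libraries.

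Replicate 1 of the Runx1KO-labelled cells stood apart from replicates 2 and 3 and list counts that change without it are given both ways. The chi-square per degree of freedom of its counts was 10.3 and 12.6 against the others, which differed by 7.15 from each other; control pairs gave 3.07 to 5.55. It was the highest of the 3 for 78 of 95 tested muscle genes, the lowest for 67 of 88 tested cell cycle genes and the highest for 61 of 97 tested interferon genes. The same shares over all genes tested were not counted, so whether this is particular to the lists was not tested.

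**Figure D1:**
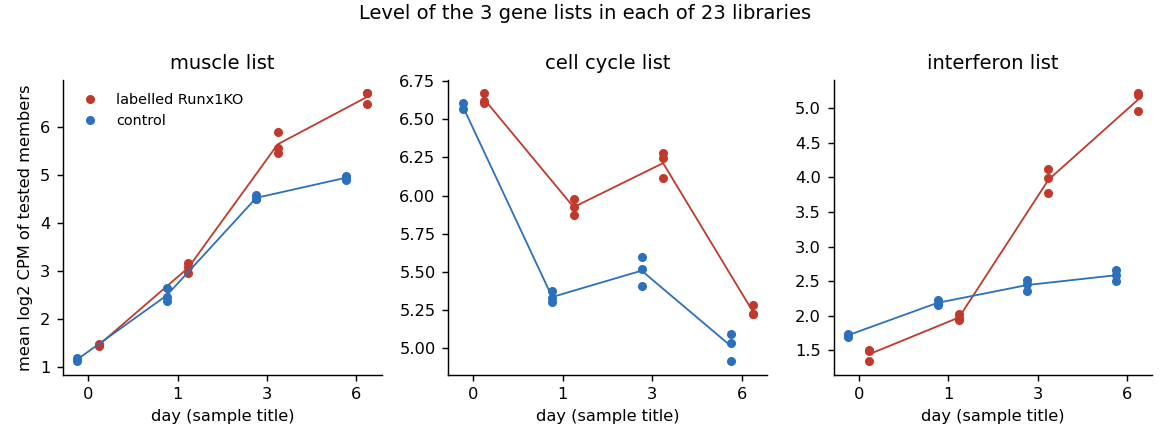
Mean log2 CPM of the tested members of the muscle, cell cycle and interferon lists (vertical axes) in each of 23 libraries, by day of the sample title; points are libraries and lines join group means. On day 3 the 3 Runx1KO-labelled libraries lie above all 3 controls in each list.

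Muscle genes were higher in the Runx1KO-labelled libraries in each of 8 roles, from regulators to sarcomere proteins. Of the 101 listed genes 95 passed the count filter, of which 71 were called higher and 3 lower, against 24% and 19.2% of all genes, with a median log2 fold change of 0.98 against 0.04 over all genes tested. Without replicate 1 there were 64 higher and 3 lower calls and the median was 0.76. On the TPM scale there were 60 higher and 6 lower, with a median of 0.51. Averaged over the list, log2 CPM was 5.897, 5.464 and 5.559 in the Runx1KO-labelled libraries and 4.498, 4.501 and 4.576 in the controls. Myl2, Myl3, Myoz1, Myot, Sln and Dmd did not pass the filter. A larger share of differentiated cells and more muscle RNA per cell cannot be told apart in RNA from whole cultures.

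Among the regulators, 9 of 14 rose and none fell. Myog, the factor that commits myoblasts to differentiation, was at 724, 366 and 389 CPM in the Runx1KO-labelled libraries and 173, 158 and 173 CPM in the controls. Replicate 1 was the highest library and replicates 2 and 3 were close to each other, and no Runx1KO-labelled library overlapped the controls. The log2 fold change of Myog was 1.55 ± 0.25 (SE) with an adjusted p of 2.23e-05, and 1.17 without replicate 1. Myod1, which acts upstream of Myog, was at 337, 321 and 322 CPM in the Runx1KO-labelled libraries and 237, 221 and 208 CPM in the controls. Its log2 fold change was 0.56 ± 0.15 (SE) (adjusted p = 0.00368), with groups that did not overlap. Mef2a, which works with the Myod1 family on muscle promoters, rose by 0.73 log2 units and the homeobox factor Six4 by 0.55. Mef2c had 29, 19 and 28 counts in the Runx1KO-labelled libraries and 0 in every control, at least 8.75-fold higher against a floor of 3 counts per library. Id1 and Id3, which bind the partners of Myod1 and hold back differentiation, also rose, by 1.62 and 1.31. Id1 was at 13.9, 12.9 and 11.3 CPM in the Runx1KO-labelled libraries and 5.75, 3.47 and 3.21 CPM in the controls. Myf5 (-0.10) and Pax7 (-0.24), factors of undifferentiated myoblasts, were not called here and were called lower on the TPM scale (-0.25 and -0.37). Pax7 was also called lower with DESeq2 (-0.28), with a mean count of at least 50 (-0.29) and with the day 3 groups fitted alone (-0.28).

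Of 13 fusion and membrane genes tested, 7 were higher (6 without replicate 1) and 1 lower. Mymk, the membrane protein required for myoblast fusion, was at 494, 288 and 317 CPM in the Runx1KO-labelled libraries and 165, 156 and 168 CPM in the controls. The groups did not overlap and the log2 fold change was 1.17 ± 0.20 (SE), or 0.90 without replicate 1. Its partner Mymx stood at 0.56 with an adjusted p of 0.0602, 0.24 without replicate 1, and was called without replicate 2 (0.68) or 3 (0.72), with no count filter (0.54) and with the day 3 groups fitted alone (0.53). Cav3, the muscle caveolin, was at 11.6, 8.27 and 6.78 CPM in the Runx1KO-labelled libraries and 0.348, 0.563 and 0.304 CPM in the controls. All Runx1KO-labelled values were above all control values and the ratio of counts per total was 21.9 (95% counting interval 15 to 33.3). Trim72, a membrane repair protein, rose by 2.18 and Dysf, another repair protein, by 1.14. Ncam1, a cell adhesion molecule, was the 1 lower member, at 366, 289.5 and 275 CPM in the Runx1KO-labelled libraries and 484, 486 and 507 CPM in the controls. Its log2 fold change was -0.66 ± 0.08 (SE) (adjusted p = 5.12e-07).

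Of 12 tested thick filament genes 11 rose, 10 without replicate 1. Their median was 2.27, the highest of the 8 muscle roles in the edgeR fit, but 0.72 on the TPM scale, below energy supply (1.10), the thin filament (0.85) and excitation-contraction coupling (0.83). Myl4, an embryonic light chain, was at 286, 176 and 217 CPM in the Runx1KO-labelled libraries and 26, 24 and 28.7 CPM in the controls. The groups were far apart, and the log2 fold change was 3.11 ± 0.14 (SE) (adjusted p = 3.34e-14). Myl1, another light chain, was at 223, 141 and 159 CPM in the Runx1KO-labelled libraries and 25.8, 25.9 and 31.5 CPM in the controls. Its log2 fold change was 2.65 ± 0.17 (SE). Myh1, an adult fast myosin heavy chain, was at 62.2, 62.2 and 71.3 CPM in the Runx1KO-labelled libraries and 11, 12 and 14 CPM in the controls. Here replicate 3 was the highest, and the fold was 5.29. Myh3, the embryonic heavy chain and on a TPM scale the most abundant one listed (156 ± 76.7 against 112 ± 9.81 TPM, SD, n = 3), was at 662, 334 and 344 CPM in the Runx1KO-labelled libraries and 240.1, 266 and 288 CPM in the controls. Its call (log2 fold change 0.76 ± 0.20 (SE), adjusted p = 0.00326) was lost without replicate 1, where the change was 0.36 and the adjusted p 0.0764. It was also lost on the TPM scale (0.38, adjusted p = 0.274 in limma).

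In the thin filament 13 of 14 rose, and 11 did without replicate 1. Acta1, skeletal actin, was at 3234, 1772 and 1931 CPM in the Runx1KO-labelled libraries and 1130, 1139 and 1246 CPM in the controls. The log2 fold change was 0.98 ± 0.22 (SE) and 0.66 without replicate 1. Actc1, the cardiac actin that embryonic muscle also makes, was at 1493, 649.7 and 693 CPM in the Runx1KO-labelled libraries and 216, 228 and 248 CPM in the controls. It rose by 2.04 log2 units, or 1.54 without replicate 1. All 7 troponins listed, the calcium switch of the thin filament, rose, from 0.99 for Tnnc1 and Tnnt1 to 1.89 for Tnnt2. Tpm1, a tropomyosin also made in non-muscle cells, was not called (-0.14), but was called lower on the TPM scale (-0.26) and with the day 3 groups fitted alone (-0.17). The call of Neb, the ruler protein of the thin filament, was lost without replicate 1, where the change moved from 0.66 to 0.28, and without control replicate 1, 2 or 3 (0.59, 0.66 and 0.74). It was also lost with DESeq2 (0.62), the other scalings, a mean count of at least 50 (0.61), the replicate block (0.62) and on the TPM scale (0.40).

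At the Z-disc and M-band 10 of 12 tested genes rose, 8 without replicate 1, and 1 fell. Actn2, a Z-disc actinin, was at 20.2, 11.7 and 12.8 CPM in the Runx1KO-labelled libraries and 0.131, 0.26 and 0.347 CPM in the controls. The controls had 3, 6 and 8 counts, and the ratio was 60.6 (95% counting interval 37.6 to 104). Its relative Actn3 moved the other way, at 206, 182 and 185 CPM in the Runx1KO-labelled libraries and 260.3, 265 and 236 CPM in the controls. The log2 fold change of Actn3 was -0.41 ± 0.09 (SE) (adjusted p = 0.000796), with groups that did not overlap. Csrp3, a Z-disc LIM protein, rose by 1.81 and Des, the muscle intermediate filament, by 0.55. Ttn, the giant spring protein, was at 250, 172 and 118 CPM in the Runx1KO-labelled libraries and 108, 118 and 116 CPM in the controls. The third Runx1KO-labelled library lay at the control level and the call (log2 fold change 0.66) was lost without replicate 1 (0.35).

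Of the excitation-contraction coupling genes 7 of 11 tested rose. Trdn, which anchors the calcium release complex, was at 20.8, 20.8 and 18.8 CPM in the Runx1KO-labelled libraries and 1.61, 1.34 and 0.868 CPM in the controls. Its log2 fold change was 3.97 ± 0.28 (SE), and 3.95 without replicate 1. Atp2a1, the calcium pump of the sarcoplasmic reticulum, was at 317, 206 and 229 CPM in the Runx1KO-labelled libraries and 70.5, 72 and 74.8 CPM in the controls. It rose by 1.79. Ryr1, the calcium release channel, rose by 1.22 and its voltage sensor Cacna1s by 1.48, while the sensor's accessory subunit Cacnb1 was not called (0.21, and -0.01 without replicate 1). Acetylcholine receptor genes differed less: 6 of 8 rose (5 without replicate 1), but the median was 0.42, and on the TPM scale 1 was called and the median was 0.20. The receptor subunit Chrna1, the most abundant of them per length, was at 673, 527 and 555 CPM in the Runx1KO-labelled libraries and 613, 561 and 547 CPM in the controls. The groups overlapped and the log2 fold change was 0.03 ± 0.09 (SE), or -0.09 without replicate 1. Chrnb1, another subunit, rose by 0.61.

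Energy supply genes rose in 8 of 11 cases. Ckm, muscle creatine kinase, was at 338, 167 and 200.3 CPM in the Runx1KO-labelled libraries and 54.6, 57.4 and 53.9 CPM in the controls. The log2 fold change was 2.09 ± 0.18 (SE) and 1.73 without replicate 1. Mb, myoglobin, rose by 2.79 and Pygm, glycogen phosphorylase, by 1.80. Ckmt2, the mitochondrial creatine kinase, had 37, 31 and 37 counts against 0, 1 and 1, a ratio of 54.4 (95% counting interval 14.7 to 455). Eno3, muscle enolase, was lower, at 250.2, 232 and 246 CPM in the Runx1KO-labelled libraries and 324, 319 and 331 CPM in the controls, a log2 fold change of -0.42 ± 0.07 (SE).

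**Figure D2:**
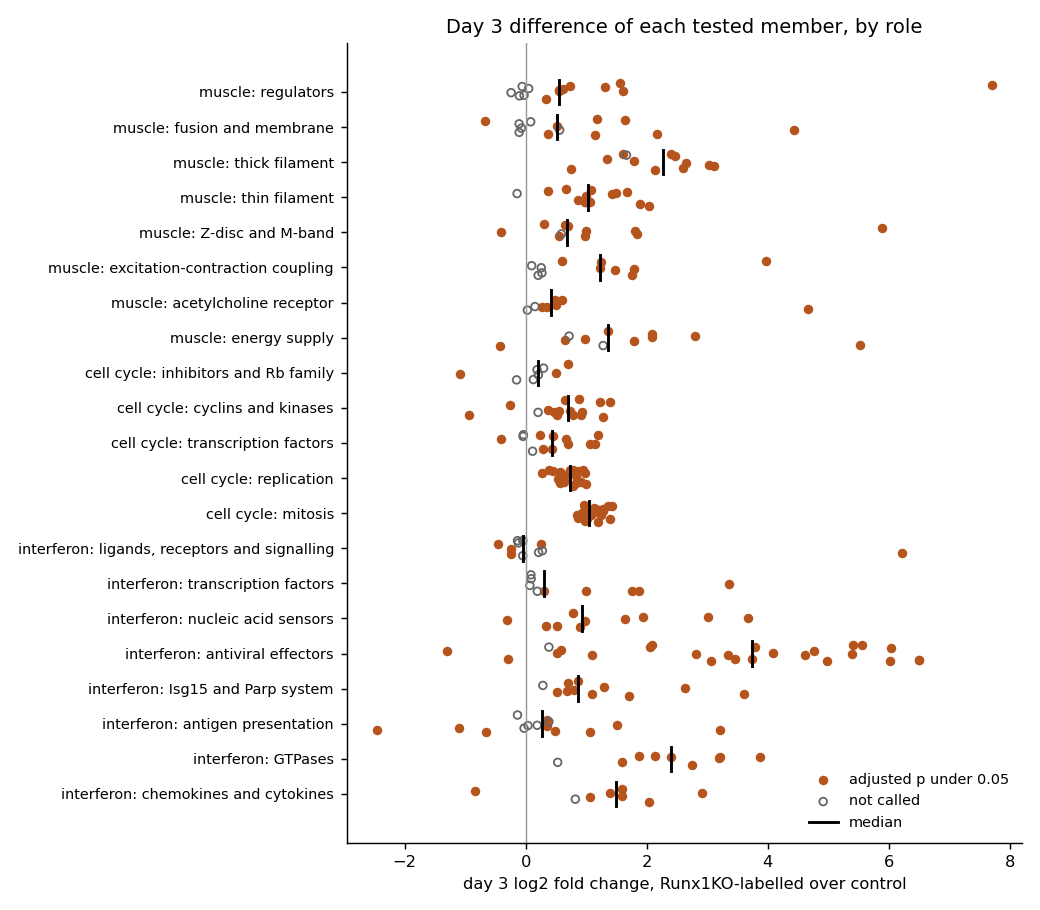
Day 3 log2 fold change (horizontal axis, Runx1KO-labelled over control) of each tested member of the 3 lists, by role; filled points have an adjusted p under 0.05 and black bars are medians. All points of the replication and mitosis rows are filled and to the right of 0, and the antiviral effectors reach 6.50.

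To show promoter letters of muscle genes that rose, the RefSeq windows (GRCm38.p6, 250 bases before to 50 after each start) were searched on both strands for the E-box CAGCTG, the form bound by the Myod1 family. The windows matched 72 of 101 muscle genes. Of their 93 windows 36.6% held the E-box, against 16.3% of all 32851 windows. Among matched tested members, 23 of 29 with the E-box and 32 of 40 without it were called higher, with medians of 1.48 and 0.92. Over all tested genes matched to a window the shares called higher were 23.6% with and 25.5% without it, with medians of 0.02 and 0.05. The called members with the highest log2 fold changes, 1 RefSeq start and the motif wholly upstream were Cav3 (chr6:112459384-112459419, plus strand, first motif base 106 bases before the start), Myl1 (chr1:66945260-66945295, minus strand, first motif base 224 bases before the start), Pygm (chr19:6384225-6384260, plus strand, first motif base 168 bases before the start) and Atp2a1 (chr7:126463108-126463143, minus strand, first motif base 55 bases before the start), printed 5′ to 3′ on the gene's strand with the E-box in capitals. A match describes letters and not a bound site.
Cav3: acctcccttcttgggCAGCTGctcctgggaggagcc
Myl1: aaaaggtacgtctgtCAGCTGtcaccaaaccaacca
Pygm: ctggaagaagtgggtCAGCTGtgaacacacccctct
Atp2a1: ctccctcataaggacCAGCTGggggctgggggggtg

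Cell cycle genes were higher in the same libraries in which muscle genes were higher. Of 90 listed genes 88 passed the filter, 75 were called higher and 4 lower, against 24% and 19.2% of all genes, with a median of 0.79. The counts were 75 and 3 without replicate 1 and the lower calls fell to 2 without replicate 3. Cdkn2a and Cdkn2b, cyclin-dependent kinase inhibitors, had 0 counts in all 6 libraries. Replicate 1, with the highest muscle level, had the lowest cell cycle level of its group: the mean log2 CPM was 6.11, 6.25 and 6.28 in the Runx1KO-labelled libraries and 5.52, 5.59 and 5.41 in the controls.

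All 25 replication genes were called higher, as were all 26 mitosis genes, with and without replicate 1. Log2 fold changes ran from 0.27 to 1.00 for replication (median 0.73) and from 0.85 to 1.43 for mitosis (median 1.05). Mcm5, a subunit of the replicative helicase, was at 132, 157 and 161 CPM in the Runx1KO-labelled libraries and 80.8, 78.1 and 70.8 CPM in the controls. The groups did not overlap and the log2 fold change was 0.97 ± 0.10 (SE) (adjusted p = 5.75e-08). Pcna, the sliding clamp of DNA polymerase and the most abundant replication gene per length (251 ± 27.4 against 186 ± 11.8 TPM, SD, n = 3), rose by 0.58. Rrm2, a subunit of ribonucleotide reductase, had the smallest replication change, 0.27, with values of 172, 213 and 212 CPM in the Runx1KO-labelled libraries and 158, 178 and 158 CPM in the controls. Its groups overlapped, and its call was lost without Runx1KO-labelled replicate 2 or 3 (0.22 and 0.23) and without control replicate 1 or 3 (0.24 and 0.25). It was also lost by library size alone (0.22), with a mean count of at least 50 (0.23) and on the TPM scale (0.12). Mcm10, a replication initiation factor, had the largest, 1.00. On the TPM scale 22 of the 25 replication calls and all 26 mitosis calls were made.

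Ube2c, a ubiquitin-conjugating enzyme of the anaphase-promoting complex, was at 179.9, 183 and 208 CPM in the Runx1KO-labelled libraries and 77.3, 75.3 and 59.3 CPM in the controls. It had the largest mitosis change, 1.43 ± 0.12 (SE). Plk1, a mitotic kinase, was at 143, 152 and 159 CPM in the Runx1KO-labelled libraries and 64.4, 63 and 46.2 CPM in the controls. It rose by 1.39, and the groups did not overlap. Top2a, which untangles sister chromatids, rose by 0.98, Mki67, the proliferation marker, by 1.03, and Anln, a cytokinesis protein, by 0.85.

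Of 16 cyclins and kinases tested, 13 rose and 2 fell (1 without replicate 1). Ccnb1, the mitotic cyclin, was at 92.1, 96.7 and 102 CPM in the Runx1KO-labelled libraries and 42.9, 43.9 and 32.9 CPM in the controls. The log2 fold change was 1.28 ± 0.11 (SE) (adjusted p = 2.6e-09). The mitotic kinase Cdk1 rose by 1.24, Ccnb2 by 1.39 and Ccne1, a cyclin of S phase entry, by 0.89. The D-type cyclins, which respond to growth factors, differed among themselves: Ccnd2 was at 39.6, 42.1 and 38.9 CPM in the Runx1KO-labelled libraries and 75, 76.4 and 78.4 CPM in the controls. It was lower by a log2 fold change of -0.93 ± 0.08 (SE) (adjusted p = 2.58e-09). Ccnd1 stood at -0.26, a call lost without Runx1KO-labelled replicate 1 or 2 (-0.22 and -0.24) and without control replicate 2 or 3 (-0.22 and -0.26). Ccnd3 rose by 0.37 and was not called on the TPM scale.

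Of the inhibitors and the Rb family, 2 of 8 tested rose (3 without replicate 1) and 1 fell, near the 24% and 19.2% of all genes. Cdkn1a, the inhibitor p21 that myoblasts raise on exit from the cycle, was at 708, 532 and 592 CPM in the Runx1KO-labelled libraries and 494, 495 and 503 CPM in the controls. It was not called (log2 fold change 0.30 ± 0.12 (SE), adjusted p = 0.0513, and 0.18 without replicate 1), but was called without replicate 2 (0.39), with no count filter (0.27) and with the day 3 groups fitted alone (0.26). Cdkn1b, the inhibitor p27, was not called (-0.15, adjusted p = 0.116), but was called lower on the TPM scale (-0.29), with DESeq2 (-0.19), by library size alone, with a mean count of at least 50 and with the day 3 groups fitted alone. Cdkn1c, the inhibitor p57, was lower at 1.49, 0.938 and 0.628 CPM in the Runx1KO-labelled libraries and 1.83, 2.56 and 2.13 CPM in the controls, a log2 fold change of -1.09 ± 0.31 (SE), a call lost without replicate 3 (-0.83). Cdkn2c, the inhibitor p18, rose by 0.70 and the Rb relative Rbl1 by 0.50, while Rb1 itself was not called (0.19). Of 13 transcription factors 9 rose (8 without replicate 1) and 1 fell. E2f2 rose by 1.20, E2f8 by 1.15 and Foxm1, which drives mitotic genes, by 1.06. E2f1 was at 49.2, 60.3 and 61.9 CPM in the Runx1KO-labelled libraries and 56.2, 58.2 and 62.2 CPM in the controls and was not called. E2f3 was called at 0.24, a call lost without replicate 1 (0.19), by library size alone (0.19), with no count filter (0.22) and on the TPM scale, where its sign turned.

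In the promoter windows, the CHR element TTTGAA, through which mitotic genes are held back in resting cells, was found in 79.2% of 24 mitosis windows (22 of 26 genes matched) and in 17.9% of all windows. All 17 matched genes with it and all 5 without it were called higher, and over all tested genes matched to a window 30.4% and 24.3% were. E2F-type sites, searched as TTTGGCGC or TTTCCCGC, were found in 30.4% of 23 replication windows (19 of 25 genes matched) and in 1.56% of all windows. The medians of replication genes with and without one were 0.79 and 0.72. Of all tested genes matched to a window, 37% with and 24.8% without one were called higher. Chosen as for the muscle genes, the sequences are from Ube2c (chr2:164769885-164769920, plus strand, first motif base 29 bases before the start), Mki67 (chr7:135716475-135716510, minus strand, first motif base 116 bases before the start) and Top2a (chr11:99024348-99024383, minus strand, first motif base 179 bases before the start) with the CHR-type element in capitals, and from Mcm5 (chr8:75109345-75109382, plus strand, first motif base 149 bases before the start), Cdc6 (chr11:98907998-98908035, plus strand, first motif base 138 bases before the start), Pola1 (chrX:93632271-93632308, minus strand, first motif base 138 bases before the start) and Mcm6 (chr1:128359793-128359830, minus strand, first motif base 110 bases before the start) with the E2F-type site in capitals.
Ube2c: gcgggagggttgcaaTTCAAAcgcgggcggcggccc
Mki67: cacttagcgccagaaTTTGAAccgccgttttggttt
Top2a: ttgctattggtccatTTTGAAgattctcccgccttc
Mcm5: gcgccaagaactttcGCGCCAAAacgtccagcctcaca
Cdc6: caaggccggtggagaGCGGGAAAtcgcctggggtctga
Pola1: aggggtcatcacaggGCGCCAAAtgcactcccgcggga
Mcm6: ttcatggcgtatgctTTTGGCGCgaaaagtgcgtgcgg

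Most interferon-responsive genes were higher in the Runx1KO-labelled libraries, while the 3 interferon genes listed had no counts. Of 104 listed genes 97 passed the filter, 68 were called higher and 10 lower, against 24% and 19.2% of all genes, with a median of 1.07. The counts were 65 and 9 without replicate 1, and 62 and 12 on the TPM scale, where the median was 0.67. Averaged over the list, log2 CPM was 4.127, 3.778 and 3.996 in the Runx1KO-labelled libraries and 2.512, 2.464 and 2.355 in the controls. Ifnb1, Ifng, Ifnl2, Irf8 and Ciita had 0 counts in all 6 libraries, and Gvin1 and Cxcl11 did not pass the filter. Leukocyte markers summed to 12.4 to 13.1 TPM in the Runx1KO-labelled libraries and 16 to 20 TPM in the controls, with 0 of 4 tested called higher and 2 lower (1 without replicate 1).

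Ligands, receptors and signalling gave 2 higher and 3 lower (2 without replicate 1) genes of 11 tested, near the 24% and 19.2% of all genes. Ifnar1, a receptor chain for type I interferon, was at 80.3, 75.3 and 76.6 CPM in the Runx1KO-labelled libraries and 84.8, 83.2 and 87.2 CPM in the controls. It was not called (-0.14, adjusted p = 0.116), but was called lower with DESeq2 (-0.17), with the other scalings, with a mean count of at least 50 and with the day 3 groups fitted alone. Its partner Ifnar2 rose by 0.26, while the kinases Jak1 (-0.24) and Tyk2 (-0.46) and the type II receptor chain Ifngr1 (-0.24) were lower. Ifnar2 lost its call on the TPM scale (0.13) and without Runx1KO-labelled replicate 3 or control replicate 2 (0.21 and 0.23), Ifngr1 without Runx1KO-labelled replicate 2 or control replicate 1 (-0.20 and -0.22), and Jak1 without Runx1KO-labelled replicate 1 or control replicate 2 (-0.22 in both). Usp18, which dampens signalling at Ifnar2 and is itself induced by interferon, had 247, 95 and 187 counts against 2, 1 and 4, a ratio of 78.4 (95% counting interval 37.7 to 195).

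Of the transcription factors, 5 of 9 tested rose, 4 without replicate 1. Stat2 was at 67.8, 58.5 and 59.7 CPM in the Runx1KO-labelled libraries and 30.4, 31.3 and 31.8 CPM in the controls, with a log2 fold change of 0.99 ± 0.10 (SE). Irf9, its DNA-binding partner, rose by 1.76. Irf7, which amplifies the type I response, was at 41, 27.8 and 38.4 CPM in the Runx1KO-labelled libraries and 2.92, 3.64 and 3.82 CPM in the controls. It rose 10.3-fold, a log2 fold change of 3.37 ± 0.17 (SE). Irf1 (0.09), Irf2 (0.07) and Stat3 (0.09) were not called.

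Nucleic acid sensors rose in 9 of 10 cases. The RNA sensors Ddx58, Ifih1 and Dhx58 rose by 0.97, 1.93 and 3.67. Zbp1, a sensor of Z-form nucleic acid, was at 21.9, 13.4 and 18.5 CPM in the Runx1KO-labelled libraries and 2.44, 2.47 and 1.74 CPM in the controls. It rose by 3.01. Mavs, the adaptor of the RNA sensors, was the 1 lower member, at 27.1, 27.2 and 26 CPM in the Runx1KO-labelled libraries and 32.7, 33.5 and 33.7 CPM in the controls, a log2 fold change of -0.32 ± 0.07 (SE).

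Antiviral effectors had the highest median of any role listed, 3.74 (1.88 on the TPM scale, also the highest), with 22 of 25 higher and 2 lower. Ifit3, which binds viral RNA with its relatives, was at 52.7, 31.4 and 44.6 CPM in the Runx1KO-labelled libraries and 1.09, 0.997 and 0.954 CPM in the controls. The controls lay near 1 CPM in all 3 libraries, and the log2 fold change was 5.40 ± 0.25 (SE) (adjusted p = 6.73e-14). Rsad2, viperin, had 311, 184 and 236 counts against 3, 3 and 2, a ratio of 94.7 (95% counting interval 47.7 to 220). Cmpk2, its neighbour in the same pathway, had 156, 99 and 127 against 2, 1 and 1, a ratio of 98.9 (95% counting interval 38.3 to 365). Bst2, tetherin, was at 58, 44 and 61.3 CPM in the Runx1KO-labelled libraries and 6.97, 8.71 and 7.46 CPM in the controls. It rose by 2.82 ± 0.16 (SE). Ifitm3, a membrane protein that blocks viral entry, was the most abundant effector per length (1096 ± 85.5 against 849 ± 49.6 TPM, SD, n = 3) and had a smaller change, 0.52. Samhd1 (-0.29), a nucleotide hydrolase, was lower. The oligoadenylate synthetases Oas2 and Oas3 rose, Oas2 from 2, 2 and 0 to 136, 60 and 82 counts. Ifit3 and Ifit3b, and the Oas1 genes, are near-identical copies, and the values of each depend on how shared reads were divided between them.

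Of the Isg15 and Parp system 10 of 11 rose. Isg15, a ubiquitin-like modifier, was at 26.4, 18.2 and 22.4 CPM in the Runx1KO-labelled libraries and 3.92, 3.47 and 3.38 CPM in the controls. It rose by 2.63 ± 0.17 (SE). Parp14 rose by 1.30, and Trim30a by 3.61. Of the interferon-induced GTPases 8 of 9 tested rose, with a median of 2.40, or 1.35 on the TPM scale. Irgm1, which guards intracellular membranes, was at 49.9, 33.5 and 41.1 CPM in the Runx1KO-labelled libraries and 13.9, 14.9 and 12.7 CPM in the controls. It rose by 1.58 ± 0.13 (SE). Irgm2 rose by 3.19 and Gbp3 by 2.75.

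Antigen presentation genes were mixed, with 6 higher (5 without replicate 1) and 3 lower of 14 tested and a median of 0.27, against 24% and 19.2% of all genes. On the TPM scale 4 were higher and 4 lower, with a median of 0.11. B2m, the light chain of class I molecules, was at 552, 559 and 579 CPM in the Runx1KO-labelled libraries and 262, 279 and 265 CPM in the controls. It rose by 1.07 ± 0.10 (SE), while the heavy chain genes H2-K1 (0.48, called) and H2-D1 (-0.14, not called) differed less. H2-D1 was called lower on the TPM scale (-0.34) and with the day 3 groups fitted alone (-0.17). Nlrc5, the activator of class I genes, rose from 5, 14 and 8 to 103, 93 and 49 counts. Psmb8, a subunit of the immunoproteasome, was lower, with 12, 9 and 2 counts against 47, 46 and 39. The control level was 5.54 (95% counting interval 3.54 to 9.05) times that of the Runx1KO-labelled libraries. Tap2, a peptide transporter, was lower at -0.66, and its partner Tap1 was not called (0.38) except with the day 3 groups fitted alone (0.35). Among chemokines 6 of 8 tested rose, 5 without replicate 1, and 1 fell. Cxcl10, the interferon-induced ligand of Cxcr3, was at 11.5, 4.42 and 5.47 CPM in the Runx1KO-labelled libraries and 1, 0.953 and 0.868 CPM in the controls. It rose by 2.91, or 2.39 without replicate 1. Ccl2, which attracts monocytes, rose by 2.04 and was not highest in replicate 1. Cxcl12, the ligand of Cxcr4, was lower at 112, 141 and 143 CPM in the Runx1KO-labelled libraries and 223, 244 and 246 CPM in the controls, a log2 fold change of -0.85 ± 0.08 (SE).

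The ISRE core GAAANNGAAA, where N is any base, was found in 50% of 18 antiviral effector windows (17 of 25 genes matched), in 34.1% of 88 interferon windows (78 of 104 matched) and in 3.44% of all windows. Of matched tested interferon genes, 25 of 29 with the element and 23 of 45 without it were called higher, and 0 and 7 were called lower. The medians were 2.40 and 0.38. Over all tested genes matched to a window the contrast was smaller, with 30.7% and 25% called higher and 17.9% and 19.6% lower. Chosen as above, the sequences are from Rsad2 (chr12:26456548-26456587, minus strand, first motif base 120 bases before the start), Ifit3b (chr19:34607754-34607793, plus strand, first motif base 188 bases before the start), Ifit3 (chr19:34583358-34583397, plus strand, first motif base 156 bases before the start) and Ifit1 (chr19:34640770-34640809, plus strand, first motif base 104 bases before the start), with the element in capitals; each lies on the opposite strand and so reads as its reverse complement. The 40 bases of Ifit3 and Ifit3b were identical.
Rsad2: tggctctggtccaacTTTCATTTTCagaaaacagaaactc
Ifit3b: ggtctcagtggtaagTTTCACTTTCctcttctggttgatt
Ifit3: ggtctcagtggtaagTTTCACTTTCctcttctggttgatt
Ifit1: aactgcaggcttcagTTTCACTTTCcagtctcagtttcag

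The core letters TGTGGT that Runx proteins bind were found in 16.8% of all windows, in 20.4% of muscle, 12.2% of cell cycle and 10.2% of interferon windows. Of 1552 tested genes with these letters in a window 24.9% were called higher and 20.6% lower, and of 8870 matched to a window without them 25.2% and 19.4%. These are descriptions of a short window and say nothing of Runx1 binding.

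**Figure D3:**
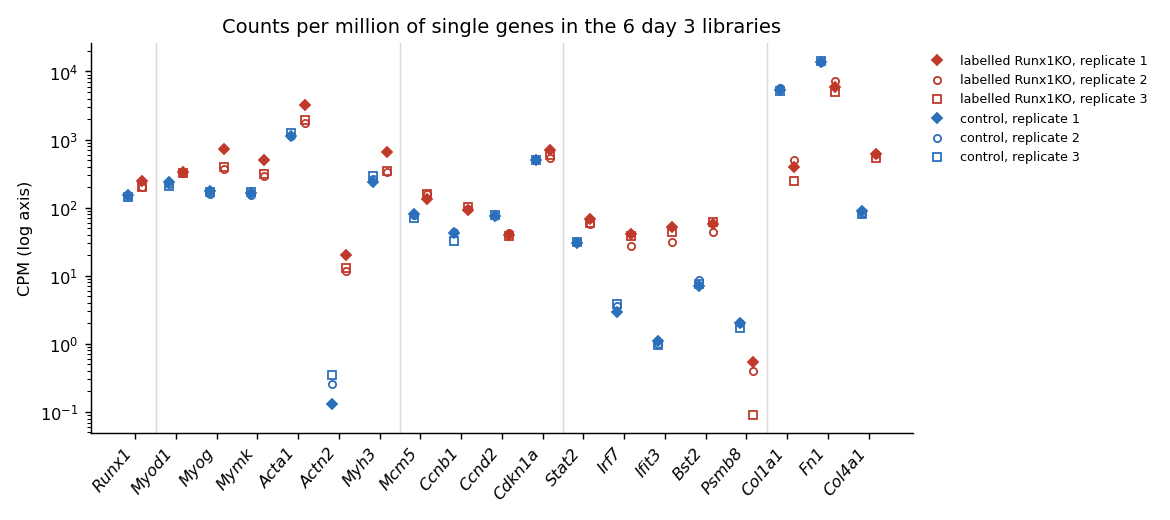
CPM (log axis) of single genes in the 6 day 3 libraries, red for Runx1KO-labelled and blue for control, with symbols for replicates 1, 2 and 3; replicate 1 is the filled diamond. Actn2, Irf7 and Ifit3 are widely separated between groups, Ccnd2, Psmb8, Col1a1 and Fn1 are lower in red, and the diamond is the highest red point for Myog, Mymk, Acta1 and Myh3.

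Matrix genes went mostly the other way. Of 20 listed genes 19 were tested, 14 were lower and 5 higher (4 without replicate 1), against 19.2% and 24% of all genes. The higher calls were near that share. The median was -0.95, and the list took 1.63% to 2.05% of counts in the Runx1KO-labelled libraries and 4.24% to 4.32% in the controls. Fibroblast markers summed to 4.12 to 4.85 TPM in the Runx1KO-labelled libraries and 8.09 to 10.5 TPM in the controls, with 3 of 3 tested lower. Bone and cartilage markers summed to 35.4 to 43.7 TPM and 64.5 to 64.9 TPM. Of these, 1 of 2 tested was lower (-0.51) and the other was not called (1.8). The part of both marker lists in the matrix result was not tested. Col1a1, the main fibrillar collagen, was at 402, 493 and 246 CPM in the Runx1KO-labelled libraries and 5435, 5781 and 5106 CPM in the controls. The controls were 14.3-fold higher and the log2 fold change was -3.84 ± 0.20 (SE) (adjusted p = 4.19e-13). Its partner chain Col1a2 differed much less, at 936, 960.3 and 804 CPM in the Runx1KO-labelled libraries and 1193, 1322 and 1236 CPM in the controls, a log2 fold change of -0.47 ± 0.08 (SE). Col6a3 (-2.23), the cross-linking enzyme Lox (-1.71), Fn1, fibronectin (-1.20), and Sparc, a collagen-binding glycoprotein (-1.003), were also lower. The basement membrane collagens rose: Col4a1 was at 614, 609 and 532 CPM in the Runx1KO-labelled libraries and 88.5, 84.3 and 80.7 CPM in the controls, a log2 fold change of 2.79 ± 0.08 (SE). Col4a2 was at 484, 462 and 393 CPM in the Runx1KO-labelled libraries and 106, 99.3 and 102 CPM in the controls, a log2 fold change of 2.13 ± 0.09 (SE). The RefSeq starts of these 2 genes lie 21 bases apart on chromosome 8 (11312826 and 11312805, GRCm38.p6) on opposite strands, each gene running across the start of the other. Of 14 Trp53 target genes 8 were lower and 2 higher (7 and 1 without replicate 1), against 19.2% and 24% of all genes, with a median of -0.39. Sesn2 was at -0.79 and Tnfrsf10b, a death receptor, at -0.71, while Fas, another death receptor, was higher at 0.82 and Pmaip1, a cell death protein, at 0.62, or 0.34 and not called without replicate 1.

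The genotype difference was then compared with the day before and the day after in the series. These tests of a difference share the day 3 libraries, but the genotype differences of days 1, 3 and 6 come from separate libraries. Between days 1 and 3 it changed for 858 genes (6.05%), 492 toward higher (3.47%) and 366 toward lower (2.58%). Between days 3 and 6 it changed for 1753 genes (12.4%), 903 toward higher (6.36%) and 850 toward lower (5.99%), or 1124 genes without Runx1KO-labelled replicate 3 of day 3.

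The interferon difference appeared between days 1 and 3. The level averaged over its genes was -0.21 log2 units apart on day 1, then 1.52 (day 3) and 2.54 (day 6). Of 97 genes 54 shifted toward higher and 0 toward lower between days 1 and 3, where the same fit called 3.47% and 2.58% of all genes. Between days 3 and 6, 51 of the 97 shifted toward higher and 2 toward lower, against 6.36% and 5.99% of all genes. The genotype difference of Rtp4, a receptor transporter induced by interferon, grew by 4.03 log2 units up to day 3 (adjusted p = 1.37e-10), that of Oasl2, an oligoadenylate synthetase-like protein, by 4.37 and that of Bst2 by 3.71. GTPases stood at -0.82 on day 1 and 2.26 on day 3.

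The muscle list differed by 0.30 log2 units on day 0, 0.57 on day 1, 1.11 on day 3 and 1.68 on day 6, with 20 shifts toward higher and 3 toward lower up to day 3 (3.47% and 2.58% of all genes), and 43 and 4 after it (6.36% and 5.99% of all genes). The shifts toward lower were near those shares. Atp2a1 grew by 2.37 up to day 3 and Ckm by 2.04 after it. Acta1 went the other way up to day 3 (-1.78) and rose again after it (1.76). Regulators differed by 0.05 on day 1 and 0.77 on day 3, and acetylcholine receptor genes by -0.26 and 0.46. Of 12 thick filament genes 1 was called as shifting toward higher and 0 toward lower between days 1 and 3, and the median shift was -0.49, although their mean difference was 1.37 on day 1 and 1.94 on day 3.

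The cell cycle list differed by 0.59 log2 units on day 1, 0.71 on day 3 and 0.23 on day 6, with 8 shifts toward higher and 2 toward lower up to day 3 (3.47% and 2.58% of all genes), and 2 and 52 after it (6.36% and 5.99% of all genes). Replication genes stood at 0.76, 0.70 and -0.07, and 23 of the 25 shifted toward lower after day 3, against 5.99% of all genes. Mitosis genes stood at 0.84, 1.09 and 0.56, and 18 of 26 shifted toward lower. Cdc6, which loads the helicase at origins, changed by -0.97 (adjusted p = 7.4e-05).

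**Figure D4:**
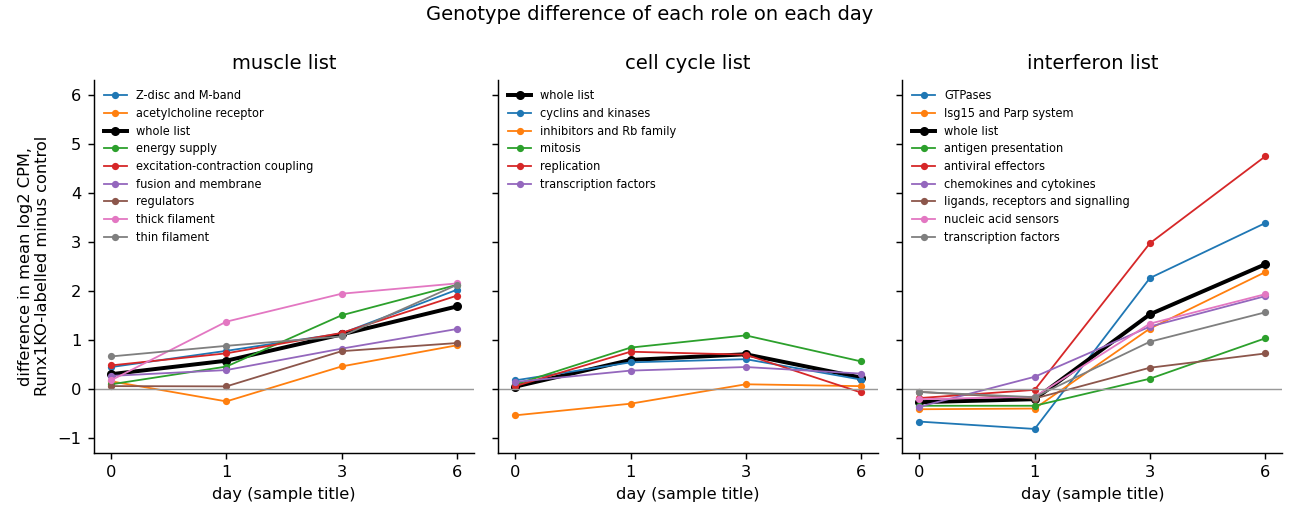
Difference in mean log2 CPM (vertical axis, Runx1KO-labelled minus control) of each role on each day of the sample titles; the black line is the whole list. Interferon roles other than chemokines and cytokines (0.25 on day 1) lie below 0 on days 0 and 1, and all lie above it on days 3 and 6, while replication genes return to -0.07 on day 6.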

How the data were processed

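PolyA-selected RNA was sequenced in 23 C2C12 libraries. Tables of estimated counts and of TPM per gene were deposited by the authors; Bowtie2, RSEM and the mouse build mm10 are named in the submitters' processing notes, and versions, annotation and strand are not given in the sources used here. The deposited estimated counts were whole numbers, so rounding changed 0 rows; shared reads are divided by an estimate, which makes near-identical genes uncertain. Genes passing edgeR's filterByExpr (minimum count 10, total 15) were fitted in 1 group-means model over all libraries with edgeR 4.0.16 (R 4.3.3), TMM scaling and quasi-likelihood tests, with no replicate block, and p-values were adjusted over 14187 genes. DESeq2 1.42.0 and limma 3.58.1 on log2(TPM + 1) or log2(TPM + 0.1) of the deposited TPM were alternatives, with other scalings, filters, groups and each day 3 library left out. A log2 fold change is Runx1KO-labelled minus control. The standard error is the log2 fold change divided by the root of the test statistic.

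Each library held 22197606 to 23684077 counts. Intervals of count ratios are exact 95% binomial intervals and, like the floor of 3 counts, cover counting error only. On simulated counts of the day 3 comparison (14187 genes), 68% of genes changed 1.5-fold and 90% of those changed 2-fold were recovered, and 6.08% of calls were false. Only a small set of genes was changed there, while 43.2% were called on day 3, so these shares need not hold for the data. Same-numbered libraries were not paired by the labels, and their deviations on day 3 correlated at 0.047, -0.014 and 0.019. The members and gene lists were chosen with earlier results of these data known. Any listed gene could be named. Of all genes, those named are the 10 with the highest and the 10 with the lowest log2 fold change among called genes with a group mean of at least 5 CPM, no overlap and a proper symbol, and the 5 largest rises and falls in TPM; Runx1 came first. Promoter windows were from RefSeq (GRCm38.p6). Rows named by clone identifiers are not named here. Some listed genes enter the counts but are not reported here by name.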

Additional observations from a re-analysis of the deposited data

Results flagged for a closer look

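The following differences between days were tested directly as interaction terms in the edgeR quasi-likelihood fit over all libraries, with Benjamini-Hochberg adjustment, and are listed because the genotype difference on day 3 differed from that of a neighbouring day. It did so for 858 genes against day 1 and for 1753 genes on day 6 against day 3. Between day 1 and day 3 the log2 fold change moved by 2.37 for Atp2a1, 2.25 for Myl4 and 0.79 for Myf5 among muscle genes. Among cell cycle genes it moved by 0.71 for Cdc25b, 0.60 for E2f8 and 0.78 for Ube2c, and among interferon genes by 4.03 for Rtp4, 4.37 for Oasl2 and 3.71 for Bst2. From day 3 to day 6 it moved by 2.04 for Ckm, 1.44 for Cacnb1 and 1.25 for Tnnc1. In the same interval it moved by -0.86 for Lig1, -0.97 for Cdc6 and -0.83 for Mcm3, and by 2.76 for Ifi27l2a, 1.18 for H2-D1 and 1.18 for Ddx58. The 3 genes per list and interval are those with the lowest adjusted p.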

How the results depend on the processing

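Of 5183 alternative values for 340 single-gene results, 4918 kept direction and side of the threshold, 164 lost and 55 gained a call, 44 uncalled values moved and 2 called values reversed: the E2f3 log2FC on day 3 stood at -0.0012 under limma on log2(TPM + 1) and at -0.00149 under log2(TPM + 0.1). On these TPM scales 1984 and 1972 genes were higher, and 6 muscle genes were lower under each; the fit of the compared groups alone also gave 6. At an absolute log2 fold change of at least 1, 1579 genes differed on day 3 (731 higher, 848 lower), 300 changed between days 1 and 3 and 370 between days 3 and 6. At that size 43 muscle genes were called, 43 higher and 0 lower, with 24 cell cycle genes, 23 higher and 1 lower. Of interferon genes 53 were called, 50 higher and 3 lower.
Leaving out 1 library at a time gave 2 to 4 lower cell cycle genes and 1124 to 1892 genes whose genotype difference changed between days 3 and 6, both lowest without Runx1KO-labelled replicate 3 of day 3. With the replicate block 6023 genes differed on day 3, 762 changed between days 1 and 3 and 1644 between days 3 and 6; of the single-gene results only the call of Neb was lost (adjusted p = 0.0553, edgeR). The numbers do not pair the libraries, and on day 3 only replicate 3 correlated best with its own number. The causes of these changes were not tested.

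With 3 libraries a group, 68% of genes changed 1.5-fold were recovered on simulated counts of the day 3 comparison (14187 genes), the smallest fold simulated. The simulation changed only a small set of genes, so this share need not hold for the data. Low genes rest on few reads, since 1 count is 0.0433 to 0.0453 CPM, and the median absolute log2 difference between replicates of day 3 was 0.121 to 0.144 in the Runx1KO-labelled libraries and 0.0942 to 0.112 in the controls. The labels do not say whether the Runx1KO-labelled cells are 1 clone or a pool, so a difference between clones and one due to the genotype cannot be told apart.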

Other observations

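Outside the lists, the gene with the largest rise was Rhox5, an X-linked homeobox gene, with 1673, 1583 and 1765 counts in the Runx1KO-labelled libraries and 5, 12 and 3 in the controls, a ratio of 260 (95% counting interval 168 to 426). Trp63, a relative of Trp53, was at 9.87, 8.13 and 7.18 CPM in the Runx1KO-labelled libraries and 0.261, 0.433 and 0.347 CPM in the controls, a log2 fold change of 4.57 ± 0.25 (SE). The other members of the 10 largest rises were Cmpk2, Rsad2, Usp18, Ifi44, Actn2, Ifit3b, Ifit3 and Cav3. Ifi44, another interferon-induced gene, had 520, 312 and 439 counts against 8, 9 and 3. The largest rise in TPM was that of H19, an imprinted noncoding RNA, at 11331 ± 635 against 1946 ± 139 TPM (SD, n = 3). Its log2 fold change was 2.69 ± 0.10 (SE). The next 4 rises in TPM were rows named by clone identifiers, 2 of which hold identical values; all such rows took 5.06% to 5.68% of counts in the Runx1KO-labelled libraries and 3.29% to 3.47% in the controls.

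Of the 10 largest falls, Hs3st1, a heparan sulfate sulfotransferase, had 0, 4 and 0 counts against 396, 431 and 429, and the control level was 305 (95% counting interval 118 to 1115) times that of the Runx1KO-labelled libraries. Unc5c, a netrin receptor, had 1, 11 and 0 counts against 260, 274 and 305, and Ntrk3, a neurotrophin receptor, 5, 4 and 1 against 161, 163 and 152. Cdhr1, a cadherin-related protein, was at 0.362, 1.61 and 0.718 CPM in the Runx1KO-labelled libraries and 86.8, 97.3 and 82.3 CPM in the controls. St8sia2, a sialyltransferase that adds polysialic acid to Ncam1, had 3, 8 and 10 counts against 449, 496 and 437. Of these genes, Runx1KO-labelled replicate 2 held more counts than replicate 1 for Hs3st1, Igsf10, Cdhr1, Bnc1, Unc5c, St8sia2, Fggy and Scara3. Gas7 completes the list, with 0, 0 and 5 counts against 131, 133 and 149. The largest falls in TPM were those of Bgn, Fn1, Sparc, Col1a1 and Actb; Bgn, the proteoglycan biglycan, fell from 3153 ± 44.6 to 1109 ± 63.3 TPM and Actb, cytoplasmic actin, from 4672 ± 310 to 3226 ± 141 TPM (SD, n = 3).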
